A study of Mus musculus with 2 samples.

Results

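The tumour necrosis factor (TNF) superfamily was compared in a mouse T cell acute lymphoblastic leukaemia with and without restored Ikaros. Members were taken by gene symbol: those beginning with Tnfrsf or Tnfsf and a digit, and also Tnf, Lta, Ltb, Ltbr, Cd27, Cd40, Cd40lg, Cd70 and Ngfr. The rule found 41 of the 27179 listed genes. They comprised 16 ligands, 24 receptors and Tnfsf13os, an antisense RNA at the Tnfsf13 locus that encodes no ligand. Superfamily genes with other names, such as Fas, fall outside the rule and are given further on.

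The treated group was the leukaemia ALL65 after 3 days of doxycycline (Dox), sorted as GFPmid cells, and the untreated group was the same leukaemia without Dox, sorted as GFPhigh cells. Both carried Vav-tTA and TRE-GFP-shIkaros, in which the Vav promoter drives a tetracycline-controlled activator in blood cells and that activator drives GFP with a hairpin against Ikaros. Dox shuts the hairpin off. All cells derive from 1 primary leukaemia grown in recipient mice, and treatment cannot be told apart from sort gate. The design names 3 mice per group and 2 sequencing runs of each RNA. The deposited table has 1 library per group, so no value has a replicate error and no difference was tested.

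Ligands of this superfamily are mostly membrane proteins that assemble as trimers, and each binds one or more receptors on the same or on other cells. Receptors with a death domain can recruit FADD or TRADD and activate caspases, while most others recruit TRAF adaptors that lead to NF-kB and MAP kinases. In T cells, members of the TRAF group such as CD27, OX40 and GITR are costimulatory, and lymphotoxins shape lymphoid tissue.

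The Dox library held 14457475 counts and the untreated library 7477988, and 3 counts, the most that a count of 0 allows for, come to 0.211 CPM (counts per 1000000) with Dox and 0.395 CPM without. Ikzf1, the gene targeted by the hairpin, stood at 1455 CPM with Dox and 262 CPM without. The 8 T cell markers were all measured and summed to 4829 CPM with Dox and 4428 CPM without. They went both ways, with log2 ratios of Dox over untreated of 0.83 for Cd4, 0.80 for Cd8a and 0.78 for Cd247, and of -0.28 for Cd3g, -0.25 for Cd3d and -0.21 for Lck. The exact 95% counting interval lay above 0 for 4 of them and below 0 for 4. Among all genes with a mean of at least 1 CPM, these shares were 24.8% and 22.3%. At the high counts of these markers even small ratios exclude 0, such as Thy1 at 0.09 (0.06 to 0.13) and Cd3e at -0.09 (-0.17 to -0.01). All 7 B cell markers, 5 dendritic cell markers and 4 NK cell markers were under 1 CPM in the mean of both libraries, with Pax5, Ms4a1, Ebf1, Ncr1, Klrk1 and Klrd1 at 0 counts in both. Of 8 myeloid markers 3 were measured, and the list summed to 334 counts in the deeper Dox library and 152 in the untreated one. Those measured moved apart, with Lyz2 at 1.69 CPM with Dox and 7.24 CPM without, Cd68 at 6.19 and 3.29 CPM, and Itgam at 14.7 and 8.42 CPM. The 4 stromal and endothelial markers summed to 12.4 CPM with Dox and 37.2 CPM without, mostly from Pdgfrb, with Cdh5 and Kdr at 0. The part of these cells in the values below was not tested. In bulk libraries, fewer cells of a type and less RNA per cell cannot be told apart.

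Of the 41 members, 22 were measured, that is, had a mean of at least 1 CPM over both libraries. These were 8 ligands and 14 receptors. A size rule asked for a 2-fold difference and for 5 CPM in whichever library was higher, and 2 members passed it. They were Ltb, a ligand that was higher with Dox, and Tnfrsf8, a receptor that was lower. Over all 10113 genes past 5 CPM, 2.21% were called higher and 2.24% lower. Both members also passed when the nearer bound of the counting interval had to lie past 2-fold, which held for 1.14% of all these genes in the higher direction and 1.39% in the lower. The promoters of these members are shown as the sequences in front of the members that differed most, from RefSeq on GRCm38.p6, the assembly behind mm10. Each window runs from 250 bases before the annotated start to 50 bases after it, 5′ to 3′ on the gene's strand. Ltb lies at chr17:35194257-35194556 on the plus strand and Tnfrsf8 at chr4:145315115-145315414 on the minus strand. Capitals mark matches to the NF-kB consensus on the gene's strand only.
Tnfrsf8: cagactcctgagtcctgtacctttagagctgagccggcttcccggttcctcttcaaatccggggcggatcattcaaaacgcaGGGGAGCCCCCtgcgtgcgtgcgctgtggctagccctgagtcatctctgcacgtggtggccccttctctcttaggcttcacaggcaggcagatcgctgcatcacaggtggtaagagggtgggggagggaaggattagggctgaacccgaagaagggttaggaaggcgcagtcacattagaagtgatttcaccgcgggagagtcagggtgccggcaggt
Ltb: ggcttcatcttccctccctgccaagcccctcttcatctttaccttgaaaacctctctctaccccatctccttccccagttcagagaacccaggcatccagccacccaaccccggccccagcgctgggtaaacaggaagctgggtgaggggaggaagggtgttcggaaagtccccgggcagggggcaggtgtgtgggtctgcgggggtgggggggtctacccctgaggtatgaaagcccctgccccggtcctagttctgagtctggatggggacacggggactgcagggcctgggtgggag

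The searched motifs were TGGGAA on both strands, a core bound by Ikaros, and the NF-kB consensus GGGRNNYYCC on the gene's strand only. In it R is A or G, Y is C or T and N is any base. The consensus reads differently on the opposite strand, and matches there were not counted. Neither window held TGGGAA. On the gene's strand Tnfrsf8 held 2 NF-kB matches that overlap in a run of 11 letters, beginning 168 bases before the start, and Ltb held 0. The Ltb window also holds ggaaagtccc, which matches the consensus on the opposite strand and is not in capitals. Among 32851 promoter windows of all genes, 25.6% held TGGGAA on either strand and 5.89% the NF-kB consensus on the gene's strand. Windows were found for 19 of the 22 measured members, not for Tnfsf9, Tnfrsf22 and Tnfrsf26. Of their 21 windows, 3 (14.3%) held TGGGAA, in front of Lta, Tnfrsf14 and Tnfrsf23. The NF-kB consensus stood on the gene's strand in 2 of them (9.52%), in front of Tnfrsf8 and Tnfrsf25. A match is a description of the letters and not a bound site.

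Among the ligands, the lymphotoxins were higher with Dox and the ligand of CD30 was lower, while the counting intervals of TNF itself and of TRAIL hold 0. Ltb, Entrez Gene 16994, encodes lymphotoxin beta, the membrane anchor of the heterotrimer that signals through the lymphotoxin beta receptor. It had 1551 counts with Dox and 339 without, or 109 and 44.6 CPM. The log2 ratio of Dox over untreated was 1.29, with an exact 95% counting interval of 1.12 to 1.46, a level 2.44-fold higher. It ranked 111 from the top of the 10113 genes past 5 CPM.

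Lta encodes lymphotoxin alpha, which forms that heterotrimer with lymphotoxin beta and as a homotrimer binds the TNF receptors. It had 87 counts with Dox and 23 without, or 6.12 and 3.03 CPM, and its log2 ratio was 0.97 (0.34 to 1.75). At 1.96-fold it lay just outside the size rule, and with a prior count of 0.5 it passed, at 1.004. Tnf had 85 counts with Dox and 49 without, or 5.98 and 6.45 CPM, with a ratio of -0.11 (-0.63 to 0.43). The 3 genes are neighbours with Tnf in the middle. The interval of Tnf lies below that of Ltb and overlaps that of Lta.

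Tnfsf8 encodes CD30 ligand, a membrane protein of activated lymphocytes. It had 82 counts with Dox and 87 without, or 5.76 and 11.4 CPM, a log2 ratio of -0.97 (-1.44 to -0.54). At 1.96-fold lower it was just outside the size rule too, and it passed when libraries were scaled by total counts, at -1.01. Tnfsf10, which encodes the death ligand TRAIL, had 399 counts with Dox and 240 without, a ratio of -0.17 (-0.41 to 0.07). Tnfsf14, which encodes LIGHT, a ligand of HVEM and of the lymphotoxin beta receptor, had 181 and 79, a ratio of 0.29 (-0.10 to 0.69). The intervals of both hold 0.

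Tnfsf11 encodes RANKL, the osteoclast factor that T lineage cells also make. It had 83 counts with Dox and 44 without, a ratio of 0.01 (-0.53 to 0.57). Tnfsf9, which encodes the ligand of the costimulatory receptor 4-1BB, had 18 counts with Dox and 16 without, a ratio of -0.66 (-1.79 to 0.33). Counts this low leave differences of more than 2-fold in Tnfsf9 inside the interval.

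**Figure D1:**
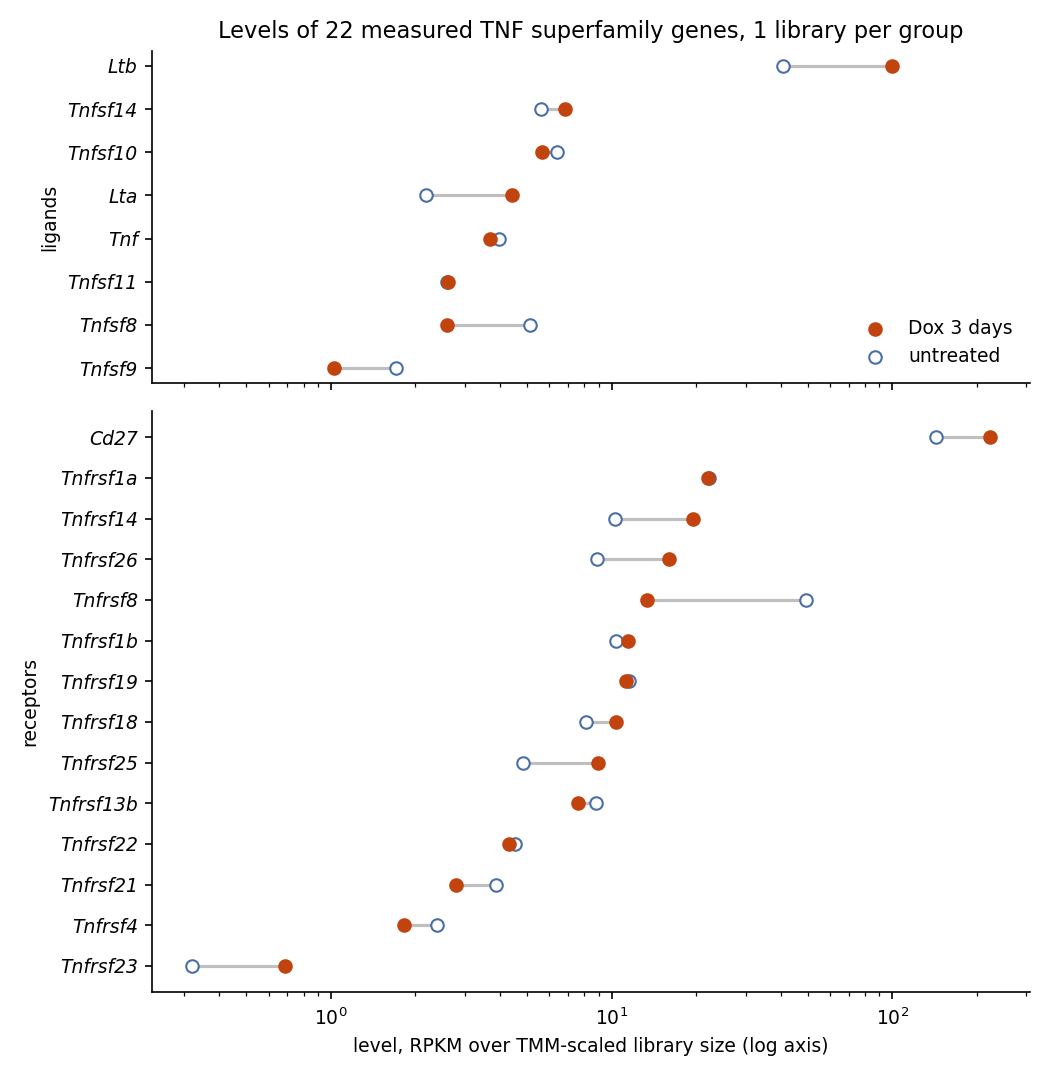
Levels of the 22 measured members in RPKM (CPM per kilobase of gene length, log axis), ligands above receptors, 1 filled point for the Dox library and 1 open point for the untreated library. Ltb stands above the other ligands and Cd27 above the other receptors in both libraries, and Tnfrsf8 has 13.4 RPKM with Dox and 49.1 RPKM without.

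Per length, 1 gene led each side. Ltb reached 99.6 RPKM with Dox and 40.7 RPKM without, which was 78.7% of the summed ligand RPKM with Dox and 59.5% without. The next ligand with Dox was Tnfsf14 at 6.84 RPKM, against 5.59 RPKM without Dox. Cd27 reached 223 RPKM with Dox and 143 RPKM without, or 62.7% of the receptor sum with Dox and 49.3% without. The second receptor differed between libraries. It was Tnfrsf1a in the Dox library, at 22.1 RPKM, and Tnfrsf8 in the untreated library, at 49.1 RPKM. Summed over ligands the level was 127 RPKM with Dox and 68.5 RPKM without, and over receptors 355 RPKM with Dox and 290 RPKM without.

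Receptors that signal through TRAF adaptors held both the largest level and the largest difference. Tnfrsf8, Entrez Gene 21941, encodes CD30, an activation marker of lymphocytes and of some lymphomas. It had 300 counts with Dox and 588 without, or 21.1 and 77.4 CPM, in libraries of which the Dox one is the deeper. The log2 ratio was -1.87 (-2.08 to -1.67), a level 3.65-fold lower, ranked 66 from the bottom of the 10113 genes past 5 CPM. Tnfrsf8 and its ligand Tnfsf8 were thus both lower with Dox.

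Cd27, Entrez Gene 21940, encodes the costimulatory receptor of CD70 that marks thymocytes and naive or memory T cells. It had 4989 counts with Dox and 1713 without, or 350.7 and 225 CPM, a ratio of 0.64 (0.56 to 0.72), 1.56-fold higher. Its RPKM stood at percentile 97.8 of the measured genes with Dox and 96.0 without, so it was abundant in both libraries. Cd70, which encodes its ligand, had 0 counts in both.

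Tnfrsf14 encodes HVEM, the receptor of LIGHT and of BTLA. It had 248 counts with Dox and 70 without, or 17.4 and 9.21 CPM, a ratio of 0.91 (0.53 to 1.32). Tnfrsf18, which encodes GITR, had 149 counts with Dox and 62 without, a ratio of 0.35 (-0.08 to 0.81). Tnfrsf4, which encodes OX40, had 30 and 21, a ratio of -0.36 (-1.24 to 0.49). Tnfrsf4 overlaps the annotated span of Sdf4, and the part of Sdf4 reads in these counts was not tested. GITR and OX40 are common on regulatory T cells, whose factor Foxp3 had 2 counts with Dox and 0 without. The list of 3 markers of such cells, of which 2 were measured, summed to 21.4 CPM with Dox and 68.8 CPM without. The difference came mostly from Il2ra, with 13 counts with Dox and 345 without, or 0.914 and 45.4 CPM. Its ratio of -5.38 (-6.56 to -4.84) was the lowest of all measured genes, so the sum mainly follows this 1 gene. Ctla4, the other one measured, had a ratio of -0.20 (-0.47 to 0.08). The part of such cells in these values was not tested.

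Tnfrsf1b, the second TNF receptor, had 801 counts with Dox and 386 without, a ratio of 0.15 (-0.03 to 0.33). Tnfrsf19, which encodes TROY, a receptor best known from skin, brain and stem cells, had 766 and 420, a ratio of -0.04 (-0.21 to 0.14). Per length it stood at 11.3 RPKM with Dox and 11.6 RPKM without, and Tnfrsf1b at 11.5 RPKM with Dox and 10.3 RPKM without. Tnfrsf13b, which encodes the B cell receptor TACI, had 81 counts with Dox and 50 without, a ratio of -0.20 (-0.73 to 0.33).

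Of the death domain receptors, 3 of 5 were measured and they did not move together. Tnfrsf25, which encodes DR3, the T cell receptor of TL1A, had 204 counts with Dox and 59 without, or 14.3 and 7.76 CPM, a ratio of 0.87 (0.46 to 1.33). Tnfrsf1a, the first TNF receptor, had 678 and 363 counts, or 47.7 and 47.8 CPM, with a ratio of -0.003 (-0.19 to 0.18). Tnfrsf21, which encodes DR6, had 144 and 107 counts, a ratio of -0.47 (-0.85 to -0.10). Tnfrsf10b, the mouse TRAIL receptor with a death domain, had only 3 counts with Dox and 4 without, and Ngfr had 0 in both.

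Tnfrsf22, Tnfrsf23 and Tnfrsf26 form a mouse group on chromosome 7, of which Tnfrsf22 and Tnfrsf23 are known as decoys for TRAIL. Tnfrsf26 had 677 counts with Dox and 201 without, or 47.6 and 26.4 CPM, a ratio of 0.84 (0.62 to 1.08). Tnfrsf22 had 139 and 78, a ratio of -0.07 (-0.48 to 0.35), and Tnfrsf23 had 32 and 8, a ratio of 0.98 (-0.05 to 2.42). The 3 are similar in sequence and the handling of shared reads is not given, so their separate values are uncertain. The interval of Tnfrsf26 lies above that of Tnfrsf22.

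**Figure D2:**
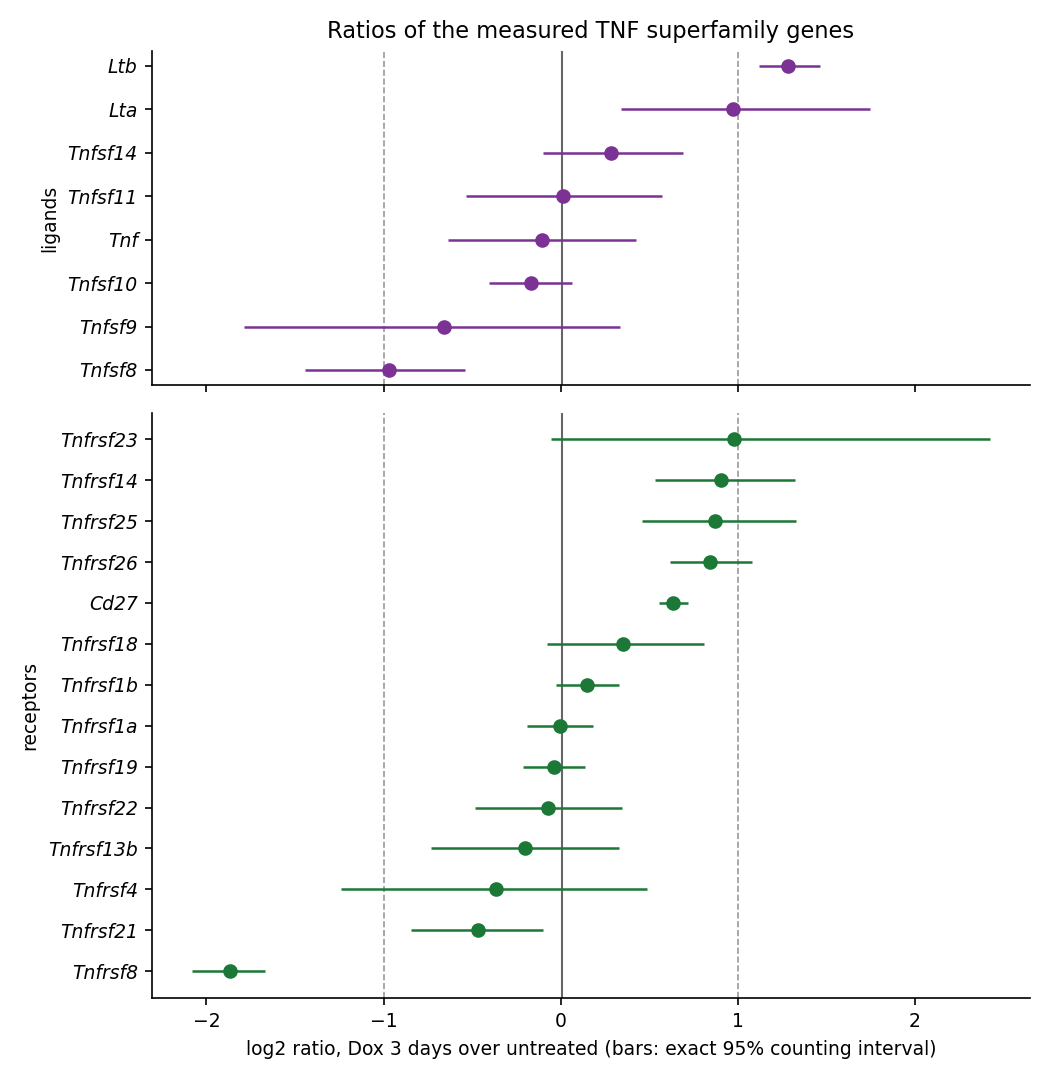
Log2 ratio of Dox over untreated for each measured ligand (above) and receptor (below), with the exact 95% counting interval as a bar, the median of all measured genes as a solid line and 2-fold as dashed lines. Ltb alone among the ligands lies past 2-fold at 1.29, and Tnfrsf8 alone among the receptors at -1.87.

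Set against each other, ligands and receptors had similar medians and a wide spread. The median log2 ratio was -0.05 over the 8 measured ligands and 0.07 over the 14 measured receptors, beside 0.01 over all 11498 measured genes. Ligands ran from -0.97 to 1.29 and receptors from -1.87 to 0.98. The middle 50% of the 22 measured members lay between -0.19 and 0.79, and that of all measured genes between -0.20 and 0.22. Of the 7 ligands past 5 CPM, 2 were at least 1.5-fold higher (Ltb and Lta) and 1 at least 1.5-fold lower (Tnfsf8). Of the 12 receptors past 5 CPM, 4 were at least 1.5-fold higher (Cd27, Tnfrsf14, Tnfrsf25 and Tnfrsf26) and 1 lower (Tnfrsf8).

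Together 8 of 19 members (42.1%) lay past 1.5-fold, beside 12.5% of all genes past 5 CPM. In the direction of higher with Dox these were 6 of 19 against a background of 6.28%, and lower 2 of 19 against 6.18%. By counting error the members did not stand out in this way, since the interval lay above 0 for 6 of 22 (27.3%) and below 0 for 3 of 22 (13.6%), beside 24.8% and 22.3% of all measured genes. Neither comparison was matched for level, and low counts both widen intervals and scatter ratios.

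The remaining 19 members were under 1 CPM in the mean of both libraries. No counts in either library were found for 10 of them, namely Tnfsf4, Tnfsf12, Tnfsf15, Tnfsf18, Cd70, Cd40, Ngfr, Tnfrsf11b, Tnfrsf17 and Tnfsf13os. Tnfsf12 and Tnfsf13 overlap the annotated spans of Tnfsf13os and Tnfsfm13, which are also listed genes. The handling of shared reads is not given, so low counts at this locus are uncertain. Among the other 9, Ltbr, the lymphotoxin beta receptor, had 1 count with Dox and 12 without, a log2 ratio of -2.80 (-9.91 to -1.73). Tnfrsf12a, which encodes the TWEAK receptor Fn14, had 17 and 4, Tnfrsf13c 13 and 4, and Tnfrsf11a, which encodes RANK, 4 and 8. Tnfrsf9, Tnfrsf10b, Cd40lg, Tnfsf13 and Tnfsf13b had at most 4 counts in either library. At these counts most differences among them were not detectable.

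Of 25 known pairs of a ligand and a receptor among the members, both partners were measured in 8, the ligand alone in 6, the receptor alone in 6 and neither in 5. The TNF receptors were measured with both of their ligands, HVEM with LIGHT, CD30 with its ligand, and TRAIL with the decoys Tnfrsf22 and Tnfrsf23. Ltb, the ligand with the highest level, was measured without its receptor Ltbr, and Cd27, the receptor with the highest level, without its ligand Cd70. OX40, GITR, DR3 and TACI were measured without a ligand, and 4-1BB ligand and RANKL without a receptor. The counts of Tnfsf13, a ligand of TACI, and of Tnfsf12 are uncertain because of the overlaps given above. These pairs are within the sorted cells, and other spleen cells that could carry the partner were not analysed here.

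Many members lie side by side, and being neighbours did not go with a shared ratio in every group. With gaps of at most 250 kb, 22 of the 40 coding members fell into 9 groups on the chromosomes. In the group of chromosome 17 from 35194507 to 35205578 (mm10), which spans 11.1 kb, Ltb at 1.29 and Lta at 0.97 flank Tnf at -0.11. Among 8 pairs of adjacent measured members, the counting intervals lay apart in 4 and overlapped in 4. The share among adjacent pairs of all measured genes was not computed, so these counts describe the pairs only. They lay apart for Ltb and Tnf, Tnfrsf1b and Tnfrsf8, Cd27 and Tnfrsf1a, and Tnfrsf26 and Tnfrsf22. They overlapped for Tnf and Lta, Tnfsf9 and Tnfsf14, Tnfrsf4 and Tnfrsf18, and Tnfrsf22 and Tnfrsf23. On chromosome 4, Tnfrsf8 at -1.87 lies next to Tnfrsf1b at 0.15, in a span of 103 kb. On chromosome 6, Cd27 at 0.64 lies in 1 group with Ltbr and with Tnfrsf1a at -0.003, and in the chromosome 7 group Tnfrsf22 at -0.07 lies between Tnfrsf26 at 0.84 and Tnfrsf23 at 0.98.

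**Figure D3:**
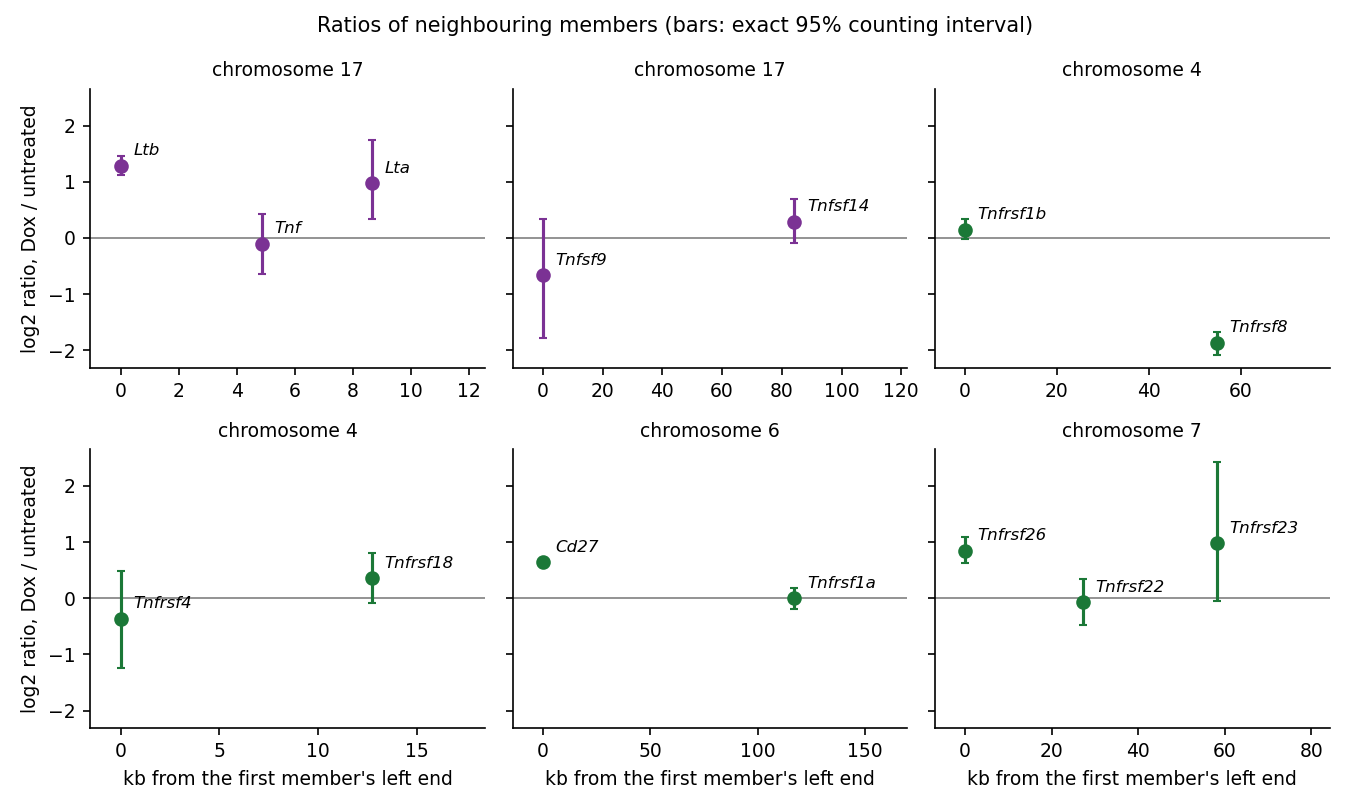
Log2 ratio of Dox over untreated, with exact 95% counting intervals, against the distance in kb from the left end of the first member, for the 6 groups of neighbours with at least 2 measured members. Intervals lie apart in 4 of 8 adjacent pairs, such as Ltb at 1.29 and Tnf at -0.11, and overlap in the other 4, such as Tnfsf9 and Tnfsf14. The share among adjacent pairs of all measured genes was not computed.

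Superfamily genes with other symbols were few. Fas, a death receptor, had 202 counts with Dox and 47 without, or 14.2 and 6.18 CPM, a ratio of 1.18 (0.74 to 1.69). Relt had 471 and 173, a ratio of 0.54 (0.29 to 0.80). Fasl, the ligand of Fas, and Eda, Edar and Eda2r had 0 counts in both libraries. Of the proteins that shed ligands and receptors from the cell surface, Adam17, the TNF-converting protease, stood at 0.38 (0.25 to 0.51) and Adam10 at 0.20 (0.11 to 0.30). Rhbdf2, which carries Adam17 through the secretory path, stood at -0.16 (-0.60 to 0.30). The median of the 4 shedding genes was 0.02, and 0 of the 3 past 5 CPM reached 1.5-fold, beside 12.5% of all genes past 5 CPM. The other one, Rhbdf1, was under 5 CPM, with 3 counts with Dox and 23 without, a ratio of -3.03 (-6.22 to -2.12).

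The adaptors and proximal signalling genes, which pass the signal from the receptor to kinases and caspases, differed little. All 26 were measured, and 0 of the 25 past 5 CPM reached 1.5-fold in either direction, beside 12.5% of all genes past 5 CPM. The ratio was above 0 for 23 of 26, beside 51.2% of all measured genes, and the median was 0.18. The interval lay above 0 for 13 of 26 and below 0 for 1, Tab1, beside 24.8% and 22.3% of all measured genes. The largest ratios past 5 CPM were those of Cflar, which encodes the caspase-8 inhibitor cFLIP, at 0.57 (0.42 to 0.73), and Birc3, a ubiquitin ligase, at 0.47 (0.19 to 0.76). They were followed by the adaptor Traf2 at 0.44 (0.26 to 0.63), the kinase Map3k5 at 0.41 (0.10 to 0.74), Traf4 at 0.37 (0.25 to 0.49) and the deubiquitinase Cyld at 0.34 (0.21 to 0.48).

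The NF-kB factors, their inhibitors and kinases had a median of 0.23 over 12 measured genes, of which 2 of 12 were called higher and 0 lower, beside 2.21% and 2.24% of all genes past 5 CPM. Bcl3, an IkB-like coactivator, had 165 counts with Dox and 10 without, a ratio of 2.97 (2.22 to 4.23). Relb, the factor of the noncanonical branch that follows lymphotoxin beta receptor and CD40 signals, had 274 and 66, a ratio of 1.13 (0.76 to 1.56). The inhibitor Nfkbia stood at 0.78 (0.62 to 0.95) and Rel at 0.74 (0.24 to 1.30), and with both past 1.5-fold the list had 4 of 12 higher at that size, beside 6.28% of all genes past 5 CPM. Nfkb2 was at 0.24 (0.03 to 0.46) and Nfkbie at 0.23 (-0.10 to 0.57).

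Genes that NF-kB commonly induces had a median of 0.24 over 13 measured of 18 listed. Of the 11 past 5 CPM, 1 was called higher (9.09%) and 0 lower, beside 2.21% and 2.24% of all genes past 5 CPM. The gene called was Relb, which belongs to the factor list as well. Nfkbia, Nfkb2, Nfkbie, Birc3, Traf1 and Tnfaip3 also stand on 2 of these lists. Tnip1 stood at 0.44 (0.28 to 0.60) and the adhesion gene Icam1 at 0.26 (0.01 to 0.51). Tnfaip3, which encodes the inhibitor A20, stood at -0.12 (-0.27 to 0.04) and Sod2 at -0.24 (-0.40 to -0.08). Of the 13 ratios 10 were above 0, beside 51.2% of all measured genes. The interval lay above 0 for 7 and below 0 for 1, beside 24.8% and 22.3% of all measured genes.

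**Figure D4:**
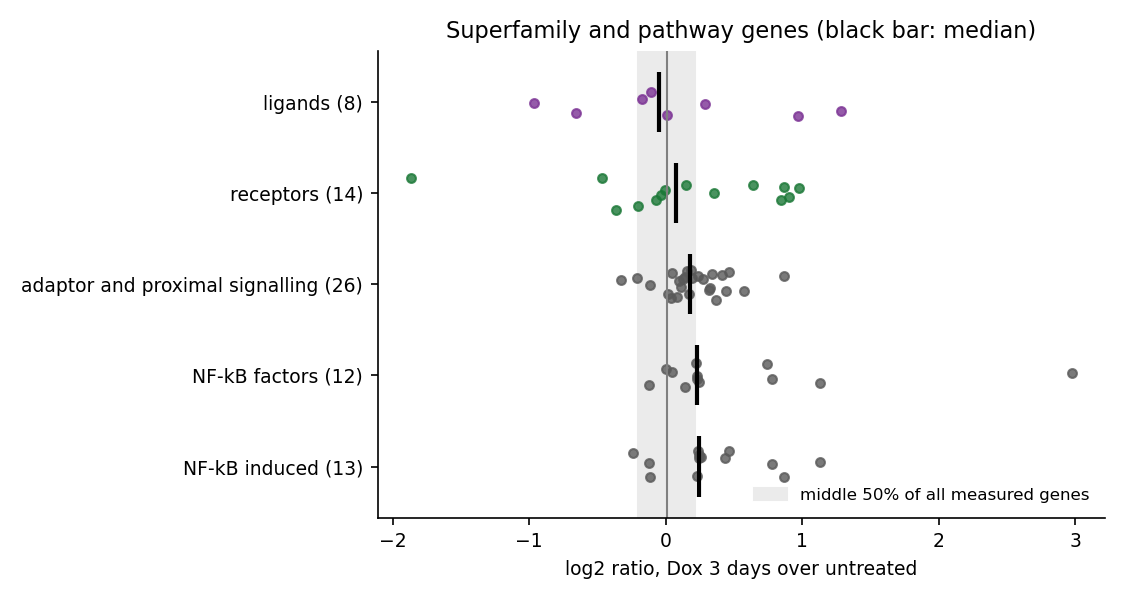
Log2 ratio of Dox over untreated for each measured gene of the superfamily and of 3 pathway lists, with the number of genes in parentheses, the list median as a black bar and the middle 50% of all measured genes as a grey band. Adaptor genes run from -0.33 for Tab1 to 0.86 for Traf1 (26 counts with Dox and 7 without) around their median of 0.18. Ligands and receptors spread from -1.87 to 1.29.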

How the data were processed

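RNA was sequenced from spleen cells sorted for the GFP-linked hairpin, with 1 deposited count column per group. The authors' deposited tables hold counts, whole numbers of reads per Entrez gene with no normalization, beside a gene length in bases. The submitters' processing notes name CASAVA 1.8.2, featureCounts and the build mm10. The aligner, annotation, strand setting, handling of reads that match several genes, and the way mice and runs were combined are not given in the sources.

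Symbols and positions came from RefSeq on GRCm38.p6 (25275 of 27179 genes) and GENCODE (18 more). Counts were scaled by the trimmed mean of M values (TMM) in edgeR 4.0.16, under R 4.3.3. CPM and RPKM are over the TMM-scaled library size, RPKM with the deposited length. Ratios used a prior count of 2, scaled to library size. Intervals are exact 95% Clopper-Pearson intervals without a prior count. They cover counting error only, as does the limit of 3 counts for a gene at 0. No test was run on 1 library per group. The thresholds were a mean of at least 1 CPM for a measured gene and 2-fold with 5 CPM in either library for a call. The ratio and interval steps were checked on simulated data.

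All measured members were named. Of each other list, the 6 with the largest ratio in either direction among those past 5 CPM were named. Other genes were chosen after their values were seen. Members and lists were chosen with earlier results of these data known. Alternatives were scaling by DESeq2 1.42.0 or by library totals, a prior count of 0.5 or of 5, other level minimums and the interval bound in place of the ratio. Removal of the trend with gene length was added once the data had been seen. Python 3.11.15 with scipy 1.17.1 did the remaining steps.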

Additional observations from a re-analysis of the deposited data

How the results depend on the processing

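The 205 single ratios recomputed for 41 named genes, under scaling by DESeq2 or by total counts, a prior count of 0.5 or of 5 and removal of the length trend, all stayed within their counting intervals. Tnfrsf8 ran from -1.91 to -1.85 and Ltb from 1.24 to 1.29, and both kept their call. Of 184 counts and medians recomputed, 14 moved. With a prior count of 0.5, 2 members were called higher, both ligands, since Lta joined Ltb. With total counts, 2 members were called lower, 1 of them a ligand, since Tnfsf8 joined Tnfrsf8. With a minimum of 1 CPM for calls, 3 members were called lower, all 3 receptors, with Ltbr and Tnfrsf11a added, and 1 shedding gene was called lower. Without a minimum for medians, that of superfamily genes with other symbols was 0. With a minimum of 20 CPM, 0 genes were called higher among NF-kB factors, NF-kB induced genes and superfamily genes with other symbols. With the interval bound in place of the ratio these counts were 1, 0 and 0. The changed counts follow from the minimums and from ratios close to 2-fold. Level per length was not recomputed, since the deposited files give a length. No paired analysis was possible because each group has 1 library. Depth limits members with under 20 counts, whose intervals hold differences of more than 2-fold.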

Other observations

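Tnfrsf13b, a receptor known from B cells, had 81 counts with Dox and 50 without, while the 7 B cell markers summed to 9 counts with Dox and 3 without. The other receptors of the same ligands were at or near 0, with Tnfrsf13c at 13 counts with Dox and 4 without and Tnfrsf17 at 0 in both. Tnfrsf13b overlaps the annotated span of Usp22, and with no stated strand setting the part of Usp22 reads in these counts was not tested. The same holds for Tnfrsf4 and Sdf4, and for Cd27, Tnfsf9 and Tnfrsf18, which each overlap a listed noncoding gene.

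Rhbdf1, a relative of Rhbdf2, had 3 counts with Dox and 23 without, a log2 ratio of -3.03 (-6.22 to -2.12). It was chosen after its values were seen.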
